A study of Mus musculus with 6 samples.

Results

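Long noncoding RNA (lncRNA) genes were followed in polyA RNA of 10T1/2 cells, a mouse embryonic fibroblast line. The members were all autosomal genes that GENCODE M21 types as lincRNA, antisense, processed_transcript, sense_intronic or bidirectional_promoter_lncRNA and whose expected counts summed to 60 or more over the 6 libraries. Of 9880 genes of these types in the table, 9162 lay on autosomes, 3847 of those had no count, and 1318 reached the sum. Hotair and the imprinted lncRNA genes H19, Meg3, Rian, Mirg, Airn, Nespas, Kcnq1ot1 and Peg13 were left out by name. These were 9 in all, which gave 1309 members among 55471 genes. No other gene was left out for imprinting, so the members can include further imprinted genes. Members were chosen by this sum of counts over both groups, not by their difference between the groups. Just outside the threshold stood Gm49169 and A530040E14Rik with a sum of 59.83 and Gm11769 with 59.95, and just inside stood Gm37062, 1810008I18Rik and Mir155hg with 60.

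The study compared untreated wild-type (WT) 10T1/2 cells with cells labelled Ranbp2 KO, made in the same study with CRISPR/Cas9, with 3 libraries in each group. Both groups were grown in DMEM with fetal bovine serum. Ranbp2 encodes a protein of the cytoplasmic face of the nuclear pore. The labels do not state whether the edited cells were 1 clone or how the replicate cultures were kept apart, so that p-values rest only on the spread among these libraries. Levels are given in CPM, the count of a gene per 1000000 counts of the scaled library. Ranbp2 mRNA measured 294, 289 and 293 CPM in the KO-labelled against 219.6, 249.96 and 249 CPM in the WT libraries. The log2 difference, KO-labelled minus WT, was 0.28 (standard error, SE, 0.07, adjusted p = 0.012 by edgeR), in the direction opposite to a loss of transcript, so the edited libraries are called KO-labelled throughout. Gene counts do not show which exons were read.

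LncRNAs are transcripts without a long open reading frame that are mostly made by RNA polymerase II and, in many cases, spliced and polyadenylated. Some act as scaffolds of nuclear bodies, such as Neat1 in paraspeckles. Others carry small nucleolar RNAs (snoRNAs) or microRNAs (miRNAs) in their introns, and many are transcribed away from a protein-coding gene out of a shared, CpG-rich promoter. Fibroblasts make the widely expressed nuclear lncRNAs Malat1 and Neat1 along with lncRNAs of HOX clusters that mark the position of a cell in the body.

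The start regions of 4 members on which the results turn are shown first, from 250 bases before to 50 bases after the RefSeq start (GRCm38.p6), each read 5′ to 3′ on the strand of the lncRNA. In the first and second, capitals run from the start of the protein-coding partner to the start of the lncRNA. In the other two, capitals mark the first transcribed bases of the lncRNA. Snhg18 (minus strand, chr15:32244613-32244912) was higher in the KO-labelled libraries while Sema5a, which starts 151 bases away and runs in the opposite direction, was lower. The lncRNA 2810032G03Rik (plus strand, chr12:5375470-5375769) starts 38 bases from Klhl29, and the KO-labelled libraries held almost no reads of either. The lncRNAs 1700003C15Rik (minus strand, chr5:11769259-11769558) and C430002N11Rik (plus strand, chr9:96765312-96765611) were among the members with the largest increase and the largest decrease. The windows of Snhg18 and 2810032G03Rik hold 31 and 42 CpG dinucleotides (the letters CG), against 1 and 4 in the windows of 1700003C15Rik and C430002N11Rik.
Snhg18 and Sema5a: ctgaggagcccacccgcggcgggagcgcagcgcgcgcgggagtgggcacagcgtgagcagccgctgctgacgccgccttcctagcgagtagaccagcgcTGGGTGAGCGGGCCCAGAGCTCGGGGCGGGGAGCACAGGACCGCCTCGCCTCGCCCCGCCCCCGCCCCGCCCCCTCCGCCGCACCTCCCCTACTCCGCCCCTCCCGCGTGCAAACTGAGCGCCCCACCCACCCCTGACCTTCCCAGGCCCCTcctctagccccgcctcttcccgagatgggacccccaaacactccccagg
2810032G03Rik and Klhl29: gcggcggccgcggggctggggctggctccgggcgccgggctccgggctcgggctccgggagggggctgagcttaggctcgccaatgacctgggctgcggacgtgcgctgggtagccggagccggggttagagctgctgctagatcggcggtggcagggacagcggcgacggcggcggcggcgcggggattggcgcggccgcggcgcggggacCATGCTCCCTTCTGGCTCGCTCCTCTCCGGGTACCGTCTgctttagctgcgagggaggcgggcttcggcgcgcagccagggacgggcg
1700003C15Rik: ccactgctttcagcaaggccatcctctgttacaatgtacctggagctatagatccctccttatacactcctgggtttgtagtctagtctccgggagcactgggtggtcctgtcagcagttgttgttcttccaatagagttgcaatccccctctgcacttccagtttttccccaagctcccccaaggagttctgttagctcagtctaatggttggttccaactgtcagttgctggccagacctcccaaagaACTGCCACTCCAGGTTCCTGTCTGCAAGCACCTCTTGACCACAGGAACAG
C430002N11Rik: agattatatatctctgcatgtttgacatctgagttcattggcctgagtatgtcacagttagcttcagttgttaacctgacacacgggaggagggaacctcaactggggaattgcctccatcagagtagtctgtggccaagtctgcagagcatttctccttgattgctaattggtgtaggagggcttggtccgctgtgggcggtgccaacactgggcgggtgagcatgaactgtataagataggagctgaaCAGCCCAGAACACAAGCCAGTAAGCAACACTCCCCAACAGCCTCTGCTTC

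The mature miRNAs encoded within Mir99ahg and Dleu2, the miRNA host genes that differed between the groups, are shown from RefSeq (GRCm38.p6) with the seed, bases 2 to 8, in capitals. Mir99ahg holds miR-99a, let-7c and miR-125b, which have 3 different seeds. Dleu2 holds miR-15a and miR-16, which share the seed AGCAGCA. PolyA libraries do not measure mature miRNAs, so that only the host transcripts have values here.
mmu-miR-99a-5p: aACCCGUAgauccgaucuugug
mmu-let-7c-5p: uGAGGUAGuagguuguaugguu
mmu-miR-125b-5p: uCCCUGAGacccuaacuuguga
mmu-miR-15a-5p: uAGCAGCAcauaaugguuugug
mmu-miR-16-5p: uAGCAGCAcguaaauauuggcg

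The libraries held 32072817 to 46321967 expected counts. Of the 11 fibroblast markers, 9 were at 1 CPM or more in both groups, with a summed level of 28600 to 35300 CPM in the KO-labelled and 22900 to 26600 CPM in the WT libraries. Without Fn1 (14500 against 5860 CPM) the sums overlapped, at 17300 to 18900 CPM against 17300 to 20500 CPM. Single markers went both ways. Col1a1 (4230 against 5720 CPM) and Pdgfrb (238 against 308 CPM) were lower on average in the KO-labelled libraries. Col3a1 (1380 against 717 CPM), Dcn (19.5 against 4.94 CPM) and Pdgfra (107 against 83.3 CPM) were higher on average there. Lum stayed under 1 CPM in both groups, and Thy1 averaged 58.3 CPM in WT but 0.533 CPM in KO-labelled libraries. Of the 4 epithelial markers only Cdh1 reached 1 CPM (7.46 against 2.22 CPM), the 3 endothelial markers summed to at most 1.05 CPM, and the 3 leukocyte markers to 1.69 to 2.74 CPM against 1.70 to 2.35 CPM. The neural markers summed to 261 to 281 CPM against 185 to 198 CPM, nearly all of it from Map2 (271 against 177 CPM), while Tubb3 went the other way (2.03 against 15.4 CPM) and Sox10 was near 0. In bulk RNA, fewer cells of a type and less RNA per cell cannot be told apart.

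The members comprised 457 lincRNA, 474 antisense, 253 processed_transcript, 58 sense_intronic and 67 bidirectional_promoter_lncRNA genes. By position relative to protein-coding genes, 448 were divergent (start sites at most 2000 bases apart on opposite strands), 404 intergenic, 347 overlapped a gene on the opposite strand and 110 a gene on the same strand. Their levels were low, with a median over libraries of 0.892 CPM against 26.4 CPM for the protein-coding genes tested. Only 92 members reached 10 CPM and 14 reached 100 CPM. Most carry gene-model or clone names (1184 members). An exon of 706 members overlaps an exon of another gene, in 634 cases on the opposite strand, and 927 members had a fractional expected count in some library, which arises where RSEM divides reads between genes. The strand setting of the counting is not given in the sources used here, so values of overlapping members are uncertain.

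LncRNA genes were more often higher than lower in the KO-labelled libraries, and their typical difference was small. After the filter on low counts, 1288 members were tested and 21 were not. At an adjusted p below 0.05 by edgeR's quasi-likelihood test, 222 members were higher (17.2%) and 66 were lower (5.12%), beside 17.6% of all 15454 genes tested called higher and 21.3% called lower. The share of members called higher was thus near that of all genes, whereas lower calls were fewer. In either direction, 22.4% of members, 38.9% of all genes and 42.9% of protein-coding genes were called. The median log2 difference was 0.26 over members, 0.01 over all genes and -0.03 over protein-coding genes, and it stayed at 0.26 with the single tested member that had no count in a group set to its bound. The values of the groups did not overlap for 37.0% of members and for 51.4% of all genes. These shares were not compared by a test, because members differ from other genes in level.

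Level goes with the number of calls. Among members with summed counts of 60 to 120, 12.8% were called, against 30.5% of protein-coding genes in the same band. The shares were 20.4% and 38.8% from 120 to 300 counts and 25.0% and 45.0% from 300 to 1000 counts. Above 1000 counts they were 42.6% of 183 members and 43.8% of protein-coding genes. In that band 53 members were higher and 25 lower, whereas 1838 protein-coding genes were higher and 2568 lower. The median difference varied with level as well. From 60 to 120 counts the median log2 difference was 0.29 over members and 0.21 over protein-coding genes. It was 0.30 and 0.09 from 120 to 300 counts, 0.23 and -0.05 from 300 to 1000, and 0.12 and -0.03 above 1000. Because 33 members passed the filter through the KO-labelled libraries alone and 11 through the WT libraries alone, the 933 members above the filter minimum of 0.248 CPM in every library were also counted. Of these, 166 were higher and 48 lower, with a median log2 difference of 0.21, beside 2424 and 2949 of 13688 genes with a median of 0.00.

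**Figure D1:**
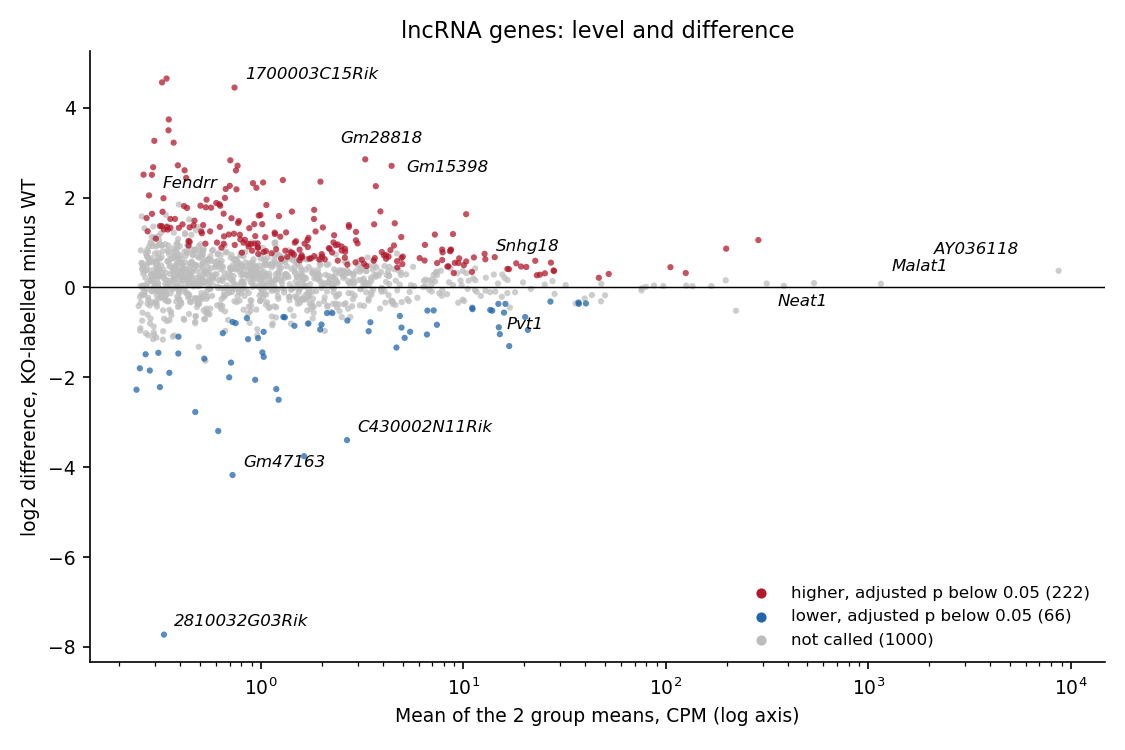
Each point is 1 of the 1288 tested lncRNA genes, with its level in CPM on a log axis and its log2 difference, KO-labelled minus WT. The 222 genes called higher (red) outnumber the 66 called lower (blue); 2810032G03Rik had no count in the KO-labelled libraries, so its fitted value depends on the prior count.

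The KO-labelled library 1 stood apart. The deviation of each gene from its mean over the 6 libraries (log2 CPM), taken as the median over members, was 0.24, 0.05 and 0.10 in the KO-labelled libraries and -0.09, -0.08 and -0.12 in the WT libraries. The groups did not overlap (exact two-sided permutation test, p = 0.1, the smallest that 3 against 3 allows). Library 1 lay furthest from 0. The KO-labelled libraries had the same order over 625 TEC genes, which are GENCODE models awaiting experimental support, at 0.35, 0.10 and 0.13 against -0.09, -0.14 and -0.19. Over 675 pseudogenes library 1 did not stand apart, at 0.13, 0.14 and 0.12 against -0.18, -0.09 and 0.01. More higher than lower calls were thus not particular to lncRNA genes. Of the TEC genes 95 were called higher and 19 lower (median log2 difference 0.35), and of the pseudogenes 105 and 23 (median 0.19). Over 12708 protein-coding genes the 6 values lay between -0.03 and 0.02. Without the KO-labelled library 1, 154 members were higher and 72 lower and the median log2 difference fell from 0.26 to 0.18.

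**Figure D2:**
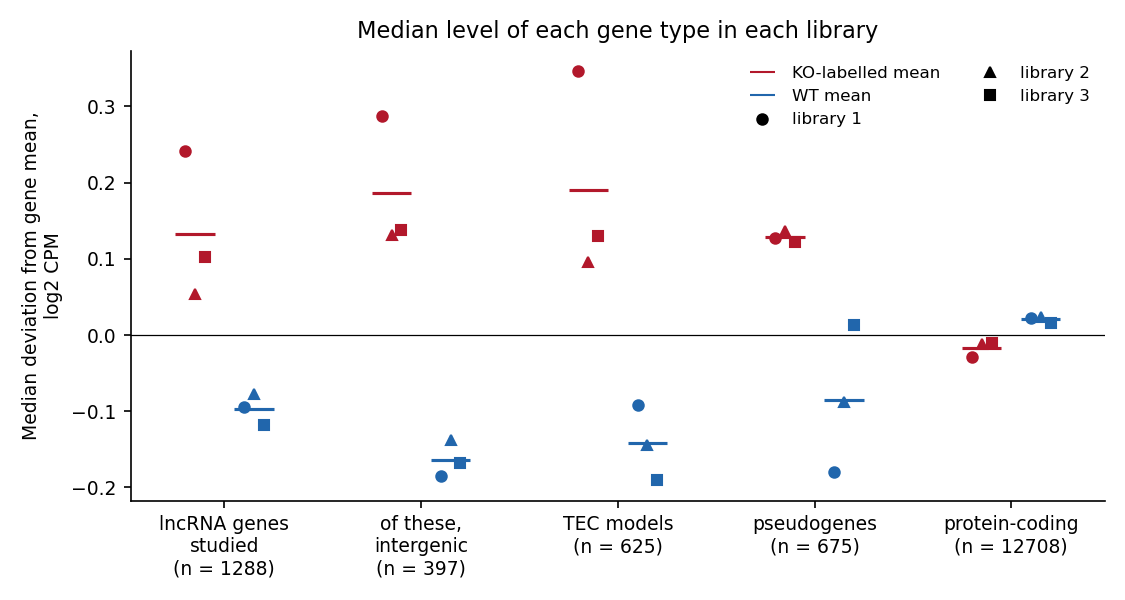
For each gene type, the points give the median over genes of the deviation from the gene's mean over the 6 libraries (log2 CPM), 1 point per library, and the bars give the mean of 3 libraries. The KO-labelled libraries (red) lie above the WT libraries (blue) for lncRNA genes, with library 1 highest at 0.24, and the protein-coding genes lie between -0.03 and 0.02.

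Intergenic lncRNA genes held the largest share of calls. Of 397 tested, 107 were higher and 22 lower (32.5% called, median log2 difference 0.37), and 66 of the higher ones differed at least 2-fold. Divergent members numbered 64 higher and 24 lower of 443 (19.9%, median 0.21), members with an antisense overlap 38 and 14 of 342 (15.2%, 0.22), and members with a same-strand overlap 13 and 6 of 106 (17.9%, 0.22). Over all members, 109 were at least 2-fold higher and 31 at least 2-fold lower, beside 4.41% and 5.73% of all genes tested and 3.57% and 6.58% of protein-coding genes. Where no exon overlapped another gene, 129 members were higher and 25 lower of 590, so that the excess of higher calls is also present among members that share no exon with another gene. Single-exon members were 21 higher and 8 lower of 210 (median 0.17), and members with a transcript of 2 or more exons were 201 higher and 58 lower of 1078 (median 0.27).

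Differences followed the chromosome. On each of the 19 autosomes the median log2 difference of members lay above that of all genes there, by 0.08 to 0.39. The median of members was highest on chromosome 1, at 0.53, where all genes had a median of 0.29, and lowest on chromosome 13, at 0.03, where all genes had -0.28. On chromosome 17 the medians were 0.45 and 0.27. Over the 19 chromosomes the medians of members and of all genes had a Pearson r of 0.866 and a Spearman rho of 0.874, given as a description, since the members are among all genes and share the libraries. With the median of all genes on its chromosome subtracted from each member, the median over members was 0.24 and 222 called members lay above and 66 below 0. A part of chromosome copy number in these values was not tested.

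The starts of the members that rose most held few CpG dinucleotides. Among 32851 RefSeq start regions of 300 bases, the median ratio of observed to expected CpG (the number of CG pairs relative to that expected from the C and G content) was 0.384, and 35.8% exceeded 0.6, a usual mark of a CpG island. Start regions within 1000 bases of the annotated start were found for 463 members, with a median ratio of 0.681 and 58.7% above 0.6. The 40 members that were at least 2-fold higher had a median of 0.262, with 27.5% above 0.6, and the 14 that were at least 2-fold lower had a median of 0.696, with 71.4% above 0.6. The 333 members not called had a median of 0.694. The ratio also went with position, with a median of 0.433 in intergenic, 0.435 in antisense-overlap and 0.846 in divergent members. Among intergenic members alone, 31 were higher and 6 lower of 87 at or below 0.6, and 8 were higher and 8 lower of 49 above 0.6. Divergent members did not show this contrast, with 6 higher and 2 lower of 39 at or below 0.6 and 33 and 8 of 175 above it. Members with an antisense overlap numbered 5 and 4 of 57 at or below 0.6 and 6 and 2 of 40 above it. These are descriptions without a test.

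The 10 largest increases among members whose higher group averaged 1 CPM or more and whose groups did not overlap were all lincRNA genes. The largest was that of 1700003C15Rik (ENSMUSG00000099391), a divergent gene on chromosome 5, which measured 1.30, 1.67 and 1.28 CPM in KO-labelled against 0.0963, 0.0218 and 0.0713 CPM in WT libraries. The WT values rest on 8.44 expected counts in all, against 155.65 in the KO-labelled libraries. The log2 difference was 4.45 (SE 0.42, adjusted p = 3.2e-05). The partner of this lncRNA, Gm8926, did not pass the filter. Of the 10, 1700003C15Rik, Gm15398 and Gm10482 share exons with another gene (Gm8924, Gm5778 and Gm28685), so their values may include divided reads.

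Gm15398, which lies antisense to the cadherin gene Pcdh15 on chromosome 10, had the smallest adjusted p of the 10. It stood at 7.18, 7.19 and 8.62 CPM against 1.13, 1.28 and 1.09 CPM, a log2 difference of 2.71 (SE 0.15, adjusted p = 1.3e-06). All KO-labelled libraries were at least 5-fold above all WT libraries. Pcdh15 itself averaged 0.0429 CPM in KO-labelled and 0.139 CPM in WT libraries and was not tested.

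Gm28818 and Gm8883 lie within 1 region of chromosome 1 (chr1:71888112-71917125) on opposite strands. Gm28818 stood at 4.91, 6.36 and 5.97 CPM against 1.01, 0.457 and 0.927 CPM, a log2 difference of 2.85 (SE 0.27, adjusted p = 3e-05). Gm8883 stood at 1.38, 1.33 and 1.85 CPM against 0.409, 0.283 and 0.214 CPM, a log2 difference of 2.32 (SE 0.32, adjusted p = 0.00034). The nearest protein-coding gene of both is Fn1, the gene of fibronectin, an adhesive protein of the extracellular matrix. It is not adjacent, at 240868 bases from Gm28818 and 234912 bases from Gm8883. Fn1 averaged 14511 ± 2736 CPM against 5860.1 ± 269 CPM (SD, n = 3), a log2 difference of 1.31 (SE 0.15, adjusted p = 0.00013 by edgeR).

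The other 6 were Gm13749, 1700086P04Rik, Gm10482, AC120164.2, Gm47223 and Gm38246, with log2 differences of 2.34 to 2.83. Gm13749 lies 60448 bases from Klf7, a zinc-finger transcription factor gene whose log2 difference was 0.04 (SE 0.07), so that the lncRNA differed without its neighbour. AC120164.2 lies 91973 bases from Pcgf5, a Polycomb gene that was also higher, at 0.42. Gm47223, with 3 exons, stood at 3.31, 3.49 and 3.06 CPM against 0.626, 0.587 and 0.713 CPM. These 6 genes stood between 0.966 and 3.49 CPM in the KO-labelled and between 0.109 and 0.713 CPM in the WT libraries.

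Among the 10 largest decreases, C430002N11Rik (ENSMUSG00000101581), an intergenic gene with 7 exons on chromosome 9, was the third in size. It measured 0.574, 0.411 and 0.383 CPM in KO-labelled against 4.74, 4.55 and 5.30 CPM in WT libraries, a log2 difference of -3.40 (SE 0.21, adjusted p = 1.9e-06). Zbtb38, the neighbouring gene of a zinc-finger protein that binds methylated DNA, lies 12731 bases away and was lower too, by -0.73 (SE 0.08).

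Gm47163 lies head to head with Shc2, the gene of a signalling adaptor protein, on chromosome 10. It stood at 0.0783, 0.103 and 0.0319 CPM against 1.59, 1.33 and 1.21 CPM, a log2 difference of -4.17 (SE 0.39, adjusted p = 2.9e-05). Shc2 stood at 1.44, 1.33 and 2.23 CPM against 15.6, 15.2 and 13.2 CPM. Both genes of the pair were at least 5-fold lower, with no overlap between the groups.

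The lncRNA 6530402F18Rik, which overlaps Ntng2 (a membrane-anchored netrin) on the same strand, stood at 0.183, 0.205 and 0.287 CPM against 3.35, 2.87 and 2.90 CPM. Its log2 difference was -3.75 (SE 0.25, adjusted p = 3.3e-06). Ntng2 averaged 0.0173 CPM against 0.283 CPM and did not pass the filter, so the reads in this region were counted mostly for the lncRNA.

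Emx2os, antisense to the homeobox gene Emx2 on chromosome 19, stood at 0.574, 0.282 and 0.734 CPM against 1.59, 1.65 and 1.35 CPM. Its log2 difference was -1.54 (SE 0.33, adjusted p = 0.0045). Emx2, a transcription factor of forebrain and urogenital development, was lower by -1.92 (SE 0.13). Of the remaining decreases, E330013P04Rik, D130017N08Rik, A930001C03Rik, Gm16170, 3010003L21Rik and Gm9869, the log2 differences ran from -3.20 to -1.67. Gm16170, 3010003L21Rik and Gm9869 overlap Trim7, Sinhcaf and Uaca on the opposite strand, and these genes were lower too, by -1.93, -0.77 and -0.56. Gm9869 shares no exon with Uaca. For Gm16170 and 3010003L21Rik, which do share exons with the gene on the other strand, reads cannot be told apart if the counting ignored the strand. The same holds for Emx2os with Emx2, Gm47163 with Shc2 and A930001C03Rik with Rhod, which also share exons on opposite strands.

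**Figure D3:**
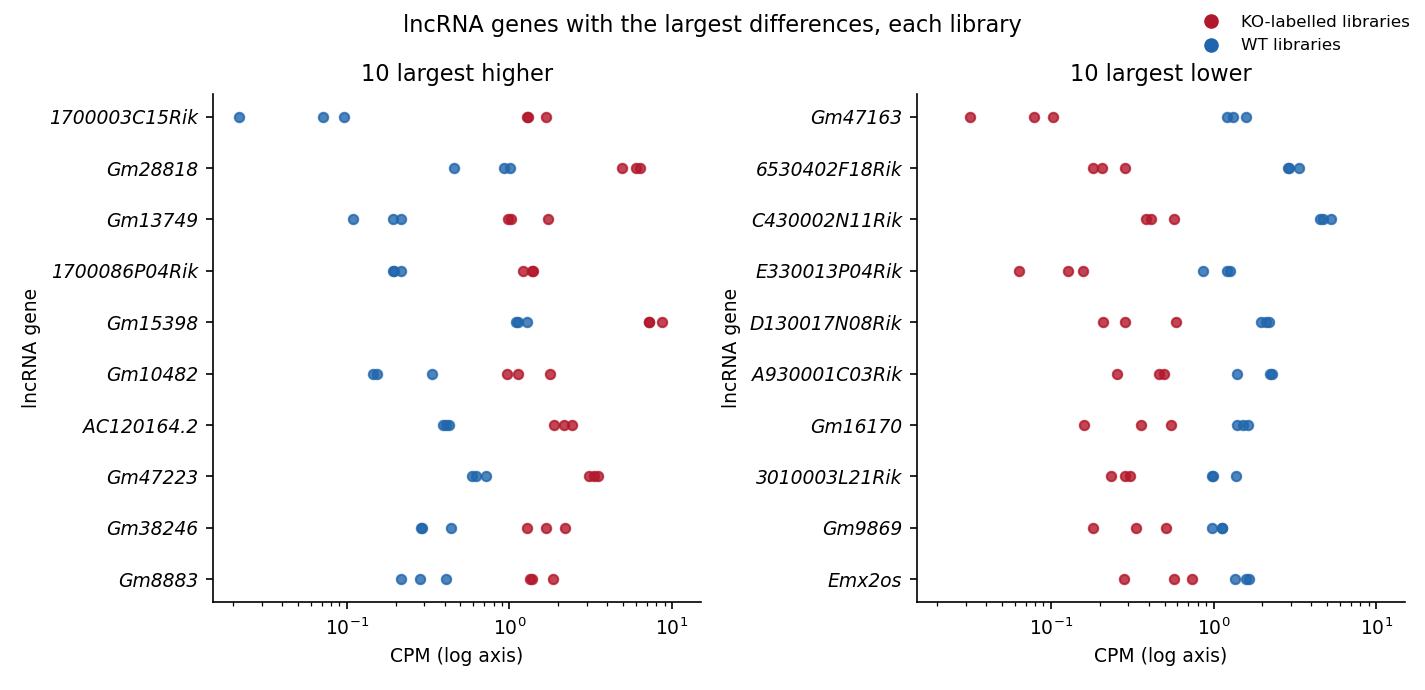
CPM on a log axis in each of the 3 KO-labelled (red) and 3 WT (blue) libraries for the 10 members with the largest positive (left) and the 10 with the largest negative (right) log2 difference. The groups do not overlap in any of the 20 genes because the choice of the genes required it.

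The most abundant lncRNAs differed little between the groups, apart from gene models at 1 locus of chromosome 17. Malat1, a nuclear speckle lncRNA on chromosome 19, measured 1474, 883 and 1201.5 CPM in KO-labelled against 1121, 1272 and 967 CPM in WT libraries. Its log2 difference was 0.08 (SE 0.17, adjusted p = 0.74), and the groups overlapped. Neat1, the scaffold RNA of paraspeckles and a neighbour of Malat1, stood at 524, 198 and 251 CPM against 339.9, 298 and 277 CPM, a log2 difference of 0.09 (SE 0.29, adjusted p = 0.84). The KO-labelled library 1 was the highest of all and the other KO-labelled libraries were the lowest. Without that library the log2 difference of Neat1 was -0.44 and that of Malat1 was -0.10, so the sign of both rested on it. Per length, as CPM per kilobase of exon averaged over the libraries, AY036118 was at 9429, Malat1 at 165, AI506816 at 120.2, Cct6a at 106, Gm26917 at 85.9 and Neat1 at 15.1.

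AI506816 stood at 538, 587 and 545 CPM against 527, 493 and 541 CPM and was not called. Cct6a, a chaperonin subunit gene that this annotation lists as processed_transcript and RefSeq as protein-coding, stood at 396, 397 and 369 CPM against 346, 376 and 411 CPM. It is 1 of 28 members that RefSeq lists as protein-coding. The locus on chromosome 17 that holds AY036118, Gm26917 and Gm42418 is known for sequence of the ribosomal RNA repeat, so these 3 genes can collect reads of ribosomal RNA. AY036118 stood at 7561, 7453 and 14418 CPM against 7752, 8547 and 6486 CPM (log2 difference 0.37, SE 0.24, adjusted p = 0.26), with the KO-labelled library 3 high, and without that library its log2 difference was -0.02. Gm26917 stood at 462, 337 and 359 CPM against 275, 173 and 109.9 CPM (log2 difference 1.05, SE 0.27, adjusted p = 0.012) and fell just short of the threshold without the KO-labelled library 1.

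These genes set the share of all counts that fell on members. The share was 1.75%, 1.47% and 2.16% in the KO-labelled and 1.52%, 1.59% and 1.33% in the WT libraries, and the groups overlapped (exact two-sided permutation test, p = 0.3). AY036118, Gm26917 and Gm42418 alone took 0.881%, 0.793% and 1.47% against 0.825%, 0.879% and 0.657%. Without these 3 genes, Malat1 and Neat1, the share was 0.660%, 0.568% and 0.556% against 0.547%, 0.552% and 0.552% (exact permutation p = 0.1). The KO-labelled library 1 was the highest, and the lowest KO-labelled share of 0.556% lay just above the highest WT share of 0.552%.

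LncRNAs that host snoRNAs, the guide RNAs that direct chemical modification of ribosomal RNA, included higher and lower genes. Of 18 members listed as such hosts, 5 were higher and 3 lower. The share called of 44.4% is near the 38.9% of all genes tested, the median log2 difference was 0.08 and none was at 2-fold. The list was made by name, and snoRNA genes inside its members were not looked up. It includes Mir17hg, a host of miRNAs that was not called, and 1810058I24Rik may not be a snoRNA host. Snhg18 rose most. It measured 16.0, 15.5 and 15.2 CPM in KO-labelled against 9.78, 9.90 and 10.6 CPM in WT libraries, a log2 difference of 0.63 (SE 0.08, adjusted p = 0.00027).

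Gas5, a host of many snoRNAs whose transcript builds up in growth-arrested cells, stood at 144, 115 and 106 CPM against 71.9, 91.4 and 104 CPM (log2 difference 0.45, SE 0.14, adjusted p = 0.031). Its groups came close to each other, at 106 and 104 CPM, and its call was lost without the KO-labelled library 1 or 2 or the WT library 1 or 2. Snhg6 (0.41) and Snhg3 (0.47) were higher as well, and 1810058I24Rik (0.22) passed narrowly. Snhg15 stood at 15.6, 13.7 and 13.0 CPM against 17.5, 19.3 and 17.7 CPM and was lower by -0.37 (SE 0.09). Snhg5 (-0.36) and Zfas1 (-0.37) were lower too, and the groups of Zfas1 overlapped. The call of Snhg15 was lost without the WT library 2, and that of Snhg5 without that library or the KO-labelled library 2 or 3. Snhg1, a host of several snoRNAs, was at 0.03 (SE 0.10).

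These calls lay near the threshold. With library size alone in place of TMM scaling 5 of the 8 were called, and without the KO-labelled library 2, the KO-labelled library 3 or the WT library 2 the number was 4, 5 and 3. Of 13 genes of the snoRNP core, which encode the proteins that bind snoRNAs, none was higher and 2 were lower (median -0.05). The share called was 15.4%, beside 38.9% of all genes tested. Rrp9, a U3 snoRNP protein, fell by 0.65 (SE 0.07) and Ruvbl2, an assembly ATPase, by 0.26 (SE 0.09). Fbl, the methyltransferase fibrillarin, was at -0.17 and Ruvbl1 at -0.21, and neither passed the threshold. The call of Ruvbl2 was lost on leaving out any library other than the WT library 3.

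Of 9 lncRNAs listed as miRNA hosts, 2 were higher and none was lower (22.2% called, beside 38.9% of all genes tested). Their median log2 difference was 0.12. Carmn, 1 of the 9, held no miRNA within its annotated bounds and was not called. Mir99ahg, whose miRNAs are shown above, measured 15.1, 10.2 and 9.61 CPM in KO-labelled against 6.94, 7.48 and 7.86 CPM in WT libraries, a log2 difference of 0.65 (SE 0.17, adjusted p = 0.012). The groups did not overlap, and the KO-labelled library 1 was the highest. Dleu2, the host of miR-15a and miR-16, stood at 28.8, 20.6 and 21.5 CPM against 14.2, 18.1 and 19.3 CPM (log2 difference 0.46, SE 0.15, adjusted p = 0.034), and its call was lost without the KO-labelled library 1, the WT library 1 or the WT library 2.

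Mir22hg, the host of miR-22, stood at 57.0, 35.5 and 35.6 CPM against 50.05, 54.6 and 54.0 CPM. The KO-labelled library 1 was above and the other KO-labelled libraries below all WT libraries, and without library 1 the log2 difference went from -0.31 to -0.57 and passed the threshold. Mir17hg, the host of the miR-17 to miR-92a cluster with 6 miRNA genes, was at 0.12 (SE 0.18) and Dnm3os, the host of miR-199a and miR-214, at -0.02 (SE 0.13). Among 14 tested genes of miRNA processing, 2 were higher and 3 lower (median 0.12), or 35.7% called beside 38.9% of all genes tested. Ago3, an Argonaute protein, rose by 0.60 (SE 0.09) and Dgcr8, the partner of Drosha, by 0.22. Ago4 fell by 0.70 (SE 0.15), Adar, an RNA editing enzyme, by 0.40 and Prkra, a Dicer partner, by 0.36. Drosha was at -0.15 and Dicer1 at 0.15, and neither passed.

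Among 10 lncRNAs of nuclear bodies and chromatin, Dleu2 was higher and Pvt1 and Dubr were lower (median log2 difference 0.12). The share called was 30.0%, beside 38.9% of all genes tested. Pvt1, the lncRNA gene next to Myc on chromosome 15, measured 11.04, 11.2 and 11.5 CPM in KO-labelled against 14.8, 16.3 and 16.6 CPM in WT libraries, a log2 difference of -0.50 (SE 0.08, adjusted p = 0.0012). Myc, 47612 bases away, was lower by -0.95 (SE 0.08). Dubr, a lncRNA known for a part in muscle differentiation, stood at 5.87, 6.31 and 5.43 CPM against 8.50, 8.22 and 8.41 CPM (log2 difference -0.51, SE 0.11).

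Tug1 stood at 178, 165 and 166 CPM against 158, 167 and 172 CPM, a log2 difference of 0.03 (SE 0.07), and the groups overlapped. The gene 2900097C17Rik, the mouse Norad lncRNA that binds Pumilio proteins, stood at 212, 208 and 205 CPM against 190.4, 186 and 183 CPM. Its groups did not overlap, but the log2 difference of 0.16 (SE 0.06, adjusted p = 0.067) missed the threshold. Of 15 paraspeckle protein genes 2 were higher and 3 lower (median -0.07), or 33.3% called beside 38.9% of all genes tested. Sfpq (0.25) and Tardbp (0.31) were higher, and Pspc1 (-0.50), Smarca4 (-0.41) and Rbm14 (-0.34) were lower. The call of Sfpq was lost without the KO-labelled library 3 or the WT library 2.

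Among 8 lncRNAs linked to p53 and stress, 2 were higher and 2 lower, with a median log2 difference of 0.06. Trp53cor1, known as lincRNA-p21 and induced by p53 next to Cdkn1a, measured 2.24, 2.31 and 2.87 CPM in KO-labelled against 1.66, 1.28 and 1.66 CPM in WT libraries, a log2 difference of 0.69 (SE 0.20, adjusted p = 0.022). The call was lost without the KO-labelled library 3 or the WT library 2. Cdkn1a, the gene of the cell cycle inhibitor p21, lies 11797 bases away and was at 82.4 ± 4.37 CPM against 300 ± 7.25 CPM (SD, n = 3), a log2 difference of -1.86 (SE 0.07, adjusted p = 7.7e-08 by edgeR). The neighbours thus differed in opposite directions. Gas5 was the other higher gene of this list, and Pvt1 and Snhg15 were the lower ones.

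Of 12 lncRNAs next to developmental regulators, 4 were higher and 2 lower, with a median log2 difference of 0.30. Fendrr, a lncRNA of lateral mesoderm that starts 1276 bases from the transcription factor gene Foxf1, measured 1.85, 1.33 and 1.5005 CPM in KO-labelled against 0.313, 0.217 and 0.475 CPM in WT libraries. Its log2 difference was 2.22 (SE 0.32, adjusted p = 0.00054), whereas Foxf1 was at 0.11 (SE 0.11). The difference between the genes of this pair was itself called (1.99 on the log2 scale, SE 0.29, adjusted p = 0.0012 by limma).

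The lncRNAs Hoxaas2, Gm15050 and Hoxaas3 of the HoxA cluster (chr6:52165674-52215076) were higher together. Hoxaas2 stood at 13.0, 9.75 and 10.4 CPM against 6.19, 6.22 and 6.27 CPM, a log2 difference of 0.83 (SE 0.12). Hoxaas3 (0.98) and Gm15050 (0.66) were also higher, as were the homeobox genes Hoxa2 (0.28) and Hoxa3 (0.39). Hotairm1, another lncRNA of this cluster, was at 0.09 (SE 0.18) and was not called. Hoxaas2 and Hoxaas3 share exons with Hoxa3 on the opposite strand, so reads cannot be told apart if the counting ignored the strand. Gm15050 shares no exon with another gene. The lncRNA 2610035D17Rik (chr11:113043895-113201838) stood at 10.2, 10.2 and 9.55 CPM against 6.33, 5.87 and 5.20 CPM (log2 difference 0.78, SE 0.11). Its nearest protein-coding gene, Slc39a11, lies 43015 bases away and was higher too, by 0.31 (SE 0.09). The lncRNA also lies downstream of Sox9, a cartilage transcription factor gene farther away (chr11:112782224-112787760), which was lower by -0.30 (SE 0.07). A830082K12Rik, divergent to the nuclear receptor gene Nr2f1, was lower by -0.45 (SE 0.09), beside -0.55 for Nr2f1, with which it shares exons on opposite strands.

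**Figure D4:**
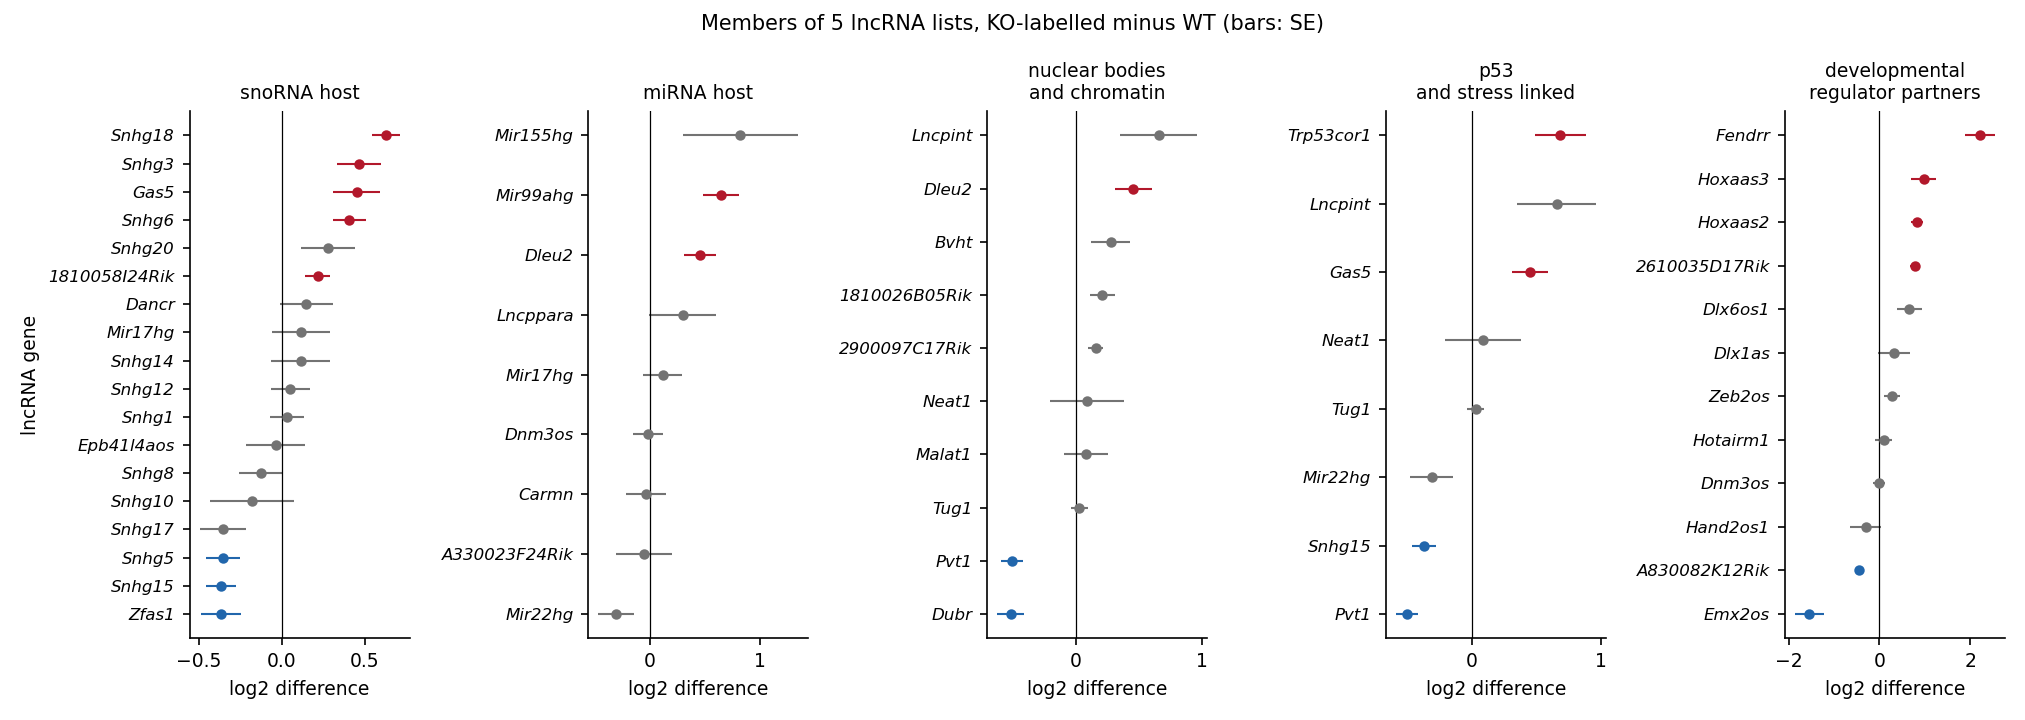
Log2 differences (KO-labelled minus WT) of the members of 5 lncRNA lists, with bars of 1 SE. Red and blue points passed an adjusted p of 0.05 as higher and lower, and the axes differ in scale; among the snoRNA hosts Snhg18 lies highest at 0.63, and Fendrr at 2.22 is the largest value shown.

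RNA decay factors act on many lncRNAs: nonsense-mediated decay removes transcripts that end translation early, and the nuclear exosome degrades unstable nuclear RNA. Among 15 genes of nonsense-mediated decay, 4 were lower (26.7%), with a median log2 difference of -0.06 over the list. This share is near the 21.3% of all genes and 25.0% of protein-coding genes called lower. Smg5 fell by 0.43, Smg9 by 0.44, Smg8 by 0.38 and Casc3 by 0.24, and the helicase gene Upf1 was at 0.05 (SE 0.10). Among 17 tested genes of the exosome and its adaptors 2 were higher and 2 lower (median -0.01). The share called was 23.5%, beside 38.9% of all genes tested. Zfc3h1, an adaptor that directs polyadenylated nuclear RNA to the exosome, rose by 0.48 (SE 0.10) and the subunit Exosc8 by 0.28. The subunits Exosc4 and Exosc7 fell by 0.41 and 0.29. The call of Exosc7 was lost without the WT library 2 and that of Exosc8 without the KO-labelled library 1 or 2 or the WT library 1 or 2. The nuclease genes Dis3 (-0.01) and Exosc10 (0.04) did not pass the threshold. Whether these levels bear on the lncRNAs was not tested.

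Divergent lncRNAs and their partners differed in the same direction only somewhat more often than not. Where they parted, it was mostly the lncRNA that was relatively higher. Both genes were tested in 428 of 448 pairs, and the differences had the same sign in 250 pairs (58.4%). In 52 pairs both genes were called, 27 times both higher, 14 times both lower and 11 times in opposite directions. Only the partner was called in 143 pairs and only the lncRNA in 32. Over the pairs, which share libraries and in 277 cases overlap by an exon on opposite strands, Pearson's r was 0.574 and Spearman's rho 0.332. Without the 2 pairs farthest out on the partner axis r was 0.375. In the 151 pairs without exon overlap r was 0.719 and 0.295 without the 2 farthest, rho was 0.375, and the same sign held in 58.9%. The large r thus rests on few pairs.

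The difference between lncRNA and partner, on the scale of log2 CPM with a prior count of 2, was called in 65 of 428 pairs (15.2%, limma, adjusted p below 0.05). The lncRNA was relatively higher in 59 of them and lower in 6. Among the 59, the lncRNA was called higher and the partner lower in 10, the lncRNA was called higher and the partner not called lower in 18, the partner was called lower and the lncRNA not called higher in 27, and neither held in 4. Such pairs numbered 36 without the KO-labelled library 2, 42 without the KO-labelled library 3, 34 without the WT library 2 and 37 without the WT library 3. With start sites at most 500 bases apart, 43 pairs were called.

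Snhg18 and Sema5a, whose shared start region is shown above, had the smallest adjusted p of a pair. Sema5a, the gene of a semaphorin guidance receptor ligand, measured 4.72, 4.57 and 4.44 CPM in KO-labelled against 16.3, 16.5 and 15.3 CPM in WT libraries. Neither gene had overlapping groups, and Sema5a fell where Snhg18 rose. The pair difference was 2.42 (SE 0.13). No exons of these genes overlap.

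The lncRNA 1700086P04Rik stood at 1.38, 1.21 and 1.40 CPM against 0.193, 0.196 and 0.214 CPM, while its partner Rnf19b, a ubiquitin ligase gene, was at 27.3, 30.3 and 28.6 CPM against 43.1, 42.6 and 50.1 CPM. The pair difference was 3.11 (SE 0.26). Gm14285 stood at 0.809, 0.693 and 0.511 CPM against 0.0963, 0.0653 and 0.0475 CPM and Adra1d, the gene of the alpha-1D adrenergic receptor, was lower by -0.69, a pair difference of 3.24 (SE 0.35). AC161119.1 stood at 22.0, 31.8 and 27.9 CPM against 13.8, 18.1 and 22.2 CPM beside Lox, the gene of the collagen cross-linking enzyme lysyl oxidase, which averaged 3426 ± 57.9 CPM against 6107 ± 496 CPM. Its groups overlapped by less than 0.2 CPM, and its own call was lost without any 1 of 4 libraries (the KO-labelled libraries 2 and 3 and the WT libraries 1 and 2). Gm14285 and AC161119.1 overlap their partners by exons on the opposite strand.

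In 4 pairs chosen for the largest lncRNA difference with the partner called in the same direction, both genes were lower. The lncRNA 2810032G03Rik had no count in any KO-labelled library and stood at 0.795, 0.696 and 0.499 CPM in the WT libraries. With a floor of 3 counts over the KO-labelled group it was at least 24-fold lower. Klhl29, the gene of a kelch-like protein, stood at 0, 0.128 and 0.0319 CPM against 10.5, 9.31 and 8.96 CPM. Since the lncRNA could fall no further than 0 from under 1 CPM, its pair difference is bounded by its WT level, and the smaller decrease on that scale does not show a smaller change.

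Gm26902 stood at 0.0783, 0.154 and 0 CPM against 0.385, 0.435 and 0.404 CPM (log2 difference -2.28, SE 0.61), and its partner Ch25h, the gene of cholesterol 25-hydroxylase, was at 0.0729 against 3.24 CPM. The same bound by low counts holds there, and the call of Gm26902 was lost without the KO-labelled library 1 or the WT library 2. A930001C03Rik stood at 0.496, 0.462 and 0.255 CPM against 2.24, 2.28 and 1.40 CPM, a log2 difference of -2.26 (SE 0.32). Its partner Rhod, the gene of an endosomal small GTPase, was lower by -0.79 (SE 0.07), so this was 1 of the 6 pairs in which the lncRNA was relatively lower (-1.38, SE 0.29, adjusted p = 0.0082). The pair of Gm47163 and Shc2 fell together without a called difference between them (-0.46, SE 0.41). Gm26902, A930001C03Rik and Gm47163 overlap their partners by exons on the opposite strand, so these pairs may share reads if the counting ignored the strand. No exon of 2810032G03Rik overlaps another gene.

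**Figure D5:**
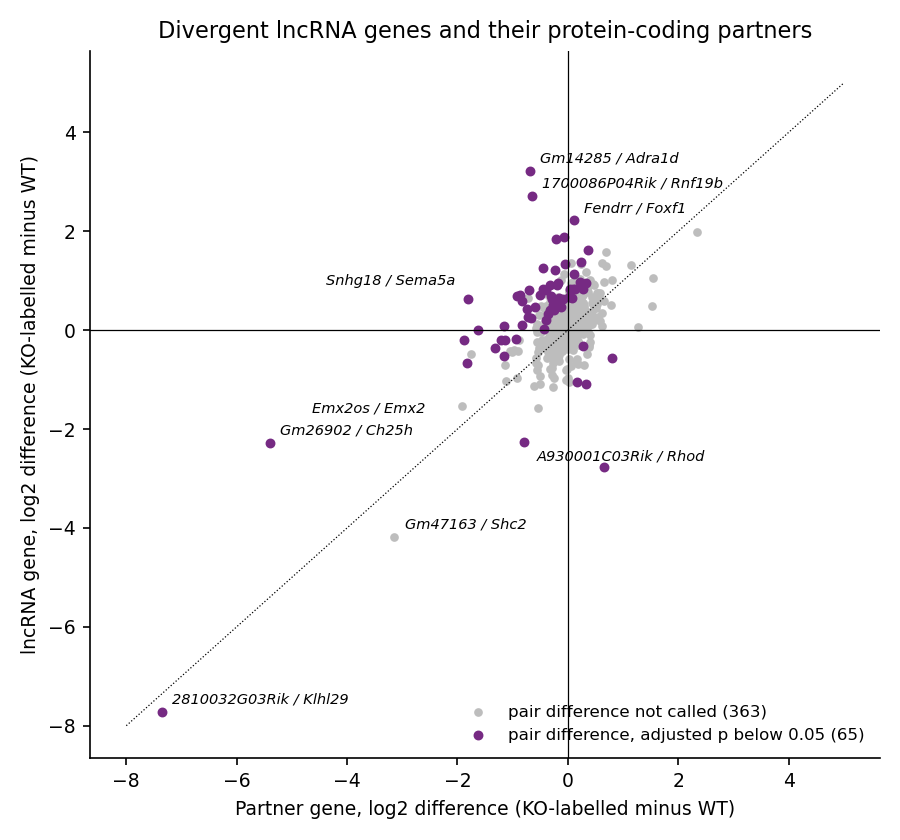
Each point is 1 of 428 divergent pairs, with the log2 difference (KO-labelled minus WT) of the protein-coding partner on the x axis and of the lncRNA on the y axis; the dotted line marks equal differences. Most of the 65 pairs with a called pair difference (purple) lie above the line, and the pairs at the lower left, such as 2810032G03Rik with Klhl29, have few or no counts in the KO-labelled libraries.

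The nearest protein-coding gene, here the neighbour, was tested for 295 intergenic members, at a median distance of 23985 bases. Of 78 members called higher, the neighbour was higher in 28, lower in 20 and not called in 30, beside 17.9% of all protein-coding genes tested called higher and 25.0% called lower. Of 17 called lower it was lower in 6, higher in 2 and not called in 9. Over the 295 members Pearson's r was 0.127 and Spearman's rho 0.235. Called members rarely stood side by side: 13 groups of 2 or more within 100000 bases of each other held 27 of the 288 called members, and 12 of the groups went in 1 direction, 11 of them higher. The trio of the HoxA cluster was the single group of 3.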

How the data were processed

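PolyA RNA of 3 KO-labelled and 3 WT cultures was sequenced. Each deposited value is an expected count of a gene, which the authors estimated with RSEM after trimming with cutadapt on build GRCm38, per the submitters' processing notes; for the aligner, for tool versions and for strand the setting is not given in the sources used here. Expected counts are estimated and can be fractional, and reads that fit several genes are divided between them, so overlapping and near-identical genes share error. Gene types, positions and exons came from GENCODE M21, by gene ID: 55230 of 55471 IDs matched and 241 did not.

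Fractional counts were rounded first. Genes were kept by edgeR's filterByExpr (minimum count 10, minimum total 15), scaled by TMM and tested with edgeR's quasi-likelihood test (edgeR 4.0.16 in R 4.3.3) over all 15454 genes kept, in both groups with no covariate. P-values were adjusted by the Benjamini-Hochberg method over all of them, and a gene was called at an adjusted p below 0.05. CPM use the TMM-scaled library size. The difference between a divergent lncRNA and its partner was tested with limma 3.58.1 on a log2 CPM scale (prior count 2), adjusted over the 428 pairs. Exact permutation tests over libraries used scipy 1.17.1. The fits were tested on simulated data with known changes. The common biological coefficient of variation was 11.5%. Total counts per library of 32072817 to 46321967 leave members near the minimum sum with about 10 counts per library, where only large differences can be called.

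The genes named are, by rule, Malat1, Neat1 and up to 4 members of each list with the smallest adjusted p, the 10 largest differences in each direction, the 6 members with the highest CPM, 8 divergent pairs and Ranbp2. Other list members were named after their values were seen, and 1 result of the decay list is not reported here. The members, lists and rules were chosen with earlier results of these data known. Alternatives were other scalings and filters, DESeq2 1.42.0, the replicate number as a block, leaving out each library, a higher minimum sum, members without exon overlap and chromosome medians subtracted. Same-numbered libraries of the groups did not deviate together (correlations of 0.022, -0.081 and -0.034), so the numbers were not used as pairs.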

Additional observations from a re-analysis of the deposited data

How the results depend on the processing

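The excess of higher over lower calls kept its direction under every alternative run, although subtracting chromosome medians did not refit the calls. The members called numbered 288 in the fit reported, 289 with DESeq2's size factors, 276 with library size only, 309 with no filter and 258 with DESeq2, and no called member reversed under these or on leaving out a library. On leaving out each library in turn, 201 to 263 members were called, 153 to 192 higher and 48 to 72 lower, 130 to 140 at 2-fold, with a median log2 difference of 0.18 to 0.30. Leaving out a library gave 3 to 7 snoRNA hosts, 1 to 2 miRNA hosts and 34 to 48 divergent pairs called, and a difference in the share of counts of 0.13 to 0.48 percentage points. A filter of 1 CPM left 67 members called at 2-fold. Members with counts summing to 300 or more gave 158 calls (118 higher, 40 lower, 36 at 2-fold) and a median log2 difference of 0.19. Members with no exon overlap gave 154 (129 higher, 25 lower, 92 at 2-fold) and a median of 0.32. Both sets are smaller, but their shares called differed too. With no exon overlap 26.1% were called, from 300 to 1000 counts 25.0% and above 1000 counts 42.6%, against 22.4% of all members. Library size only left 5 snoRNA hosts called, and start sites within 500 bases left 43 pairs.

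With the replicate number as a block, which the deviations do not support as a pairing, 247 members were called (191 higher, 56 lower), 1 miRNA host and 68 pairs, and the log2 difference of Neat1 went to -0.037.

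Signs that turned belonged to genes that were not called. The log2 difference of AY036118 ran from -0.02 to 0.53 on leaving out a library, that of Cct6a from -0.026 to 0.10, that of Malat1 from -0.10 to 0.25, with -0.01 without the WT library 3, and that of Neat1 from -0.44 to 0.34. Of 808 comparisons of 68 named genes under the alternatives, 754 kept their direction and side of the threshold, 40 (12 genes) lost a call, 8 (4 genes) gained one and 6 turned in sign; the cause was not tested. Alternatives without the 28 members that RefSeq lists as protein-coding, with members of 2 or more exons only, and without 3 genes of the chromosome 17 locus were chosen after seeing the data. Depth limits calls of members at low counts, and absent calls there do not show equal levels.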

Other observations

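Some called members with given names that the rule above did not reach are given here, chosen after their values were seen. Foxd2os, divergent to the forkhead gene Foxd2, was at 15.1, 15.9 and 15.7 CPM in KO-labelled against 4.82, 4.92 and 5.37 CPM in WT libraries. Its log2 difference was 1.63 (SE 0.09, adjusted p = 1.5e-06), while Foxd2 was at 0.37 (SE 0.19) and did not pass. Lockd, a lncRNA 3579 bases from the cell cycle inhibitor gene Cdkn1b, was at 10.2, 11.7 and 10.95 CPM against 6.67, 7.20 and 4.87 CPM, a log2 difference of 0.81 (SE 0.15), and Cdkn1b was higher too, by 0.38. Neither lncRNA had overlapping groups.

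Crnde, divergent to the homeobox gene Irx5, was at 7.62, 5.85 and 5.08 CPM against 3.49, 4.26 and 3.78 CPM (log2 difference 0.69, SE 0.17), beside 0.16 for Irx5, which did not pass. Mannr, 27105 bases from Mecom, was higher by 1.41 (SE 0.24), and Mecom, a zinc-finger transcription factor gene, by 0.41. Lncenc1 was at 0.183, 0.103 and 0.160 CPM against 0.361, 0.740 and 0.570 CPM, a log2 difference of -1.90 (SE 0.43). Enc1, 181936 bases away, was lower by -0.69. These values stand without an explanation.

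Gm43118 and Gm43055, 2 members that did not pass the filter, had no count in 1 group each. Gm43118 was at 1.57, 0.50 and 0 CPM in WT libraries and at 0 in every KO-labelled library. Gm43055 was at 0.470, 1.33 and 0 CPM in KO-labelled libraries and at 0 in every WT library.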
